A study of Mus musculus with 23 samples.

Results

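Explants of testes from wild type CD-1 mice that had been cultured for 30 days (D30) were compared with explants cultured for 16 days (D16), in fresh tissue only. The members are 5 of the 23 sequenced samples, 2 libraries at D16 and 3 at D30, chosen by the sample labels, and all 19758 genes with enough counts to be tested are described, of 27466 in the table. All explants came from 6.5 dpp (days postpartum) mice that had not been frozen, and grew in α-MEM with knockout serum replacement, gentamicin and retinol, so that D16 corresponds in age to 22.5 dpp and D30 to 36.5 dpp. The centre of each explant, which becomes necrotic in this culture, was cut away before RNA was extracted, so the libraries do not hold the whole explant. The labels do not say which animals or culture runs gave which library. The p-values then measure only the spread between libraries, estimated jointly over the 21 libraries of the fit, which include other ages and culture times. The 6.5 dpp fresh group and the frozen D30 group have no second library in that fit and so give no measure of the spread.

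During the first wave of spermatogenesis in the mouse, spermatogonia enter meiosis, spermatocytes pass through a long pachytene stage and divide into haploid round spermatids, and these elongate. In elongating spermatids the histones give way to transition proteins and then to protamines, which pack the sperm DNA. The genes of these nuclear proteins are transcribed in round spermatids and their mRNA is stored for later translation. Sertoli cells, which nurse the germ cells, stop making anti-Müllerian hormone as they mature, and Leydig cells between the tubules make androgens.

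Late spermatid genes were higher after 30 days of culture than after 16. Prm1, Prm2, Tnp1 and Tnp2, the protamine and transition protein genes, lay between 56.1 and 680 CPM (the library's counts scaled to a fixed total) in the D30 libraries and at 0.787 to 5.46 CPM in the D16 libraries. A second group was made of secreted acute phase, complement and chemokine genes, led by Lcn2, which codes for the iron-siderophore carrier lipocalin 2. Among single genes of steroid metabolism, Cyp17a1 and Cyp21a1 were higher, while the steroidogenesis list as a whole had a median log2 fold change of 0.12. The genes that were lower included Amh, the gene of anti-Müllerian hormone, Dlk1, which marks immature Leydig cells, and genes of stroma and vessels. In all, 268 genes were higher at D30 (1.36% of the genes tested) and 42 were lower (0.213%) at an adjusted p under 0.05 in the quasi-likelihood F test of edgeR, with no minimum fold. For each of the 310, the values of both groups did not overlap, which was also so in 21.5% of all genes tested.

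**Figure D1:**
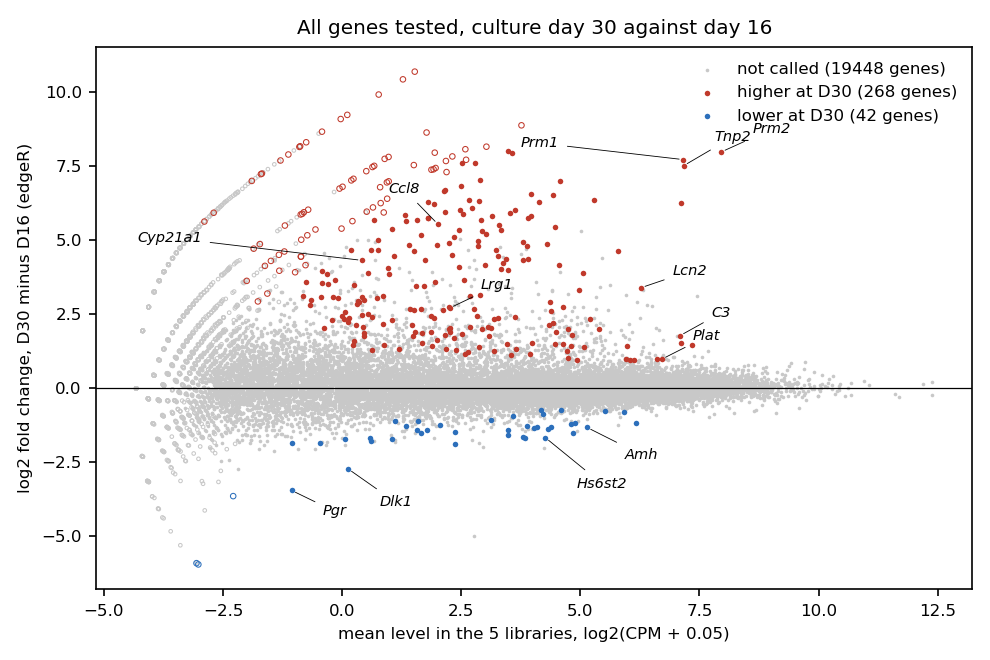
Every gene tested, with its mean level in the 5 libraries as log2(CPM + 0.05) on the x axis and its fitted log2 fold change, D30 minus D16, on the y axis. The 268 genes higher at D30 (red) reach far from 0 at all levels and the 42 lower genes (blue) mostly lie between -1 and -2; open circles are genes with at most 3 counts in every library of one group, whose fitted value is not a measured fold.

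The count of calls depended on single libraries and on the libraries that share the estimate of spread. It was 18 without D16 replicate 2 and 739 without D16 replicate 1, 119 without D30 replicate 1, 142 without D30 replicate 2 and 499 without D30 replicate 3. With the spread taken from the D16 and D30 libraries alone, 0 genes were called by edgeR (1147 at an unadjusted p under 0.05, against 2113 in the fit of 21 libraries), and DESeq2 called 533 higher and 140 lower on those 21 libraries. A fit that included the library labelled 6.5 dpp fresh replicate 1, whose profile lay nearest to D16 replicate 1 (Spearman correlation 0.985 across genes), gave 128 and 6. Under the 14 alternatives other than the fit of both groups alone, 8 genes kept their call throughout. Of the 75 called genes chosen by the naming rule, 15 kept their call without D16 replicate 2. Those kept throughout were Lcn2, Lrg1, Cyp21a1, Tnp2, Oxct2b, Gm5893 and 4931408C20Rik among the higher genes, and Hs6st2 among the lower.

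The libraries held between 39469156 and 45760541 counts, and differed in their germ cell transcripts in a way that crossed the groups. The summed level of 24 pachytene spermatocyte genes was 10608 and 4935 CPM in D16 replicates 1 and 2, and 9821, 11145 and 3880 CPM in D30 replicates 1 to 3. D16 replicate 2 and D30 replicate 3 were thus the low libraries of their groups. Sertoli cell genes ran the other way, with 10999 and 13474 CPM at D16 and 10737, 11464 and 16358 CPM at D30. Over all genes D16 replicate 1 was nearer to D30 replicate 2 (Spearman correlation 0.981, across genes) than to D16 replicate 2 (0.964). Fewer cells of a type and less RNA per cell cannot be told apart in such libraries of whole tissue, and the part of this spread in the results below was not tested.

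**Figure D2:**
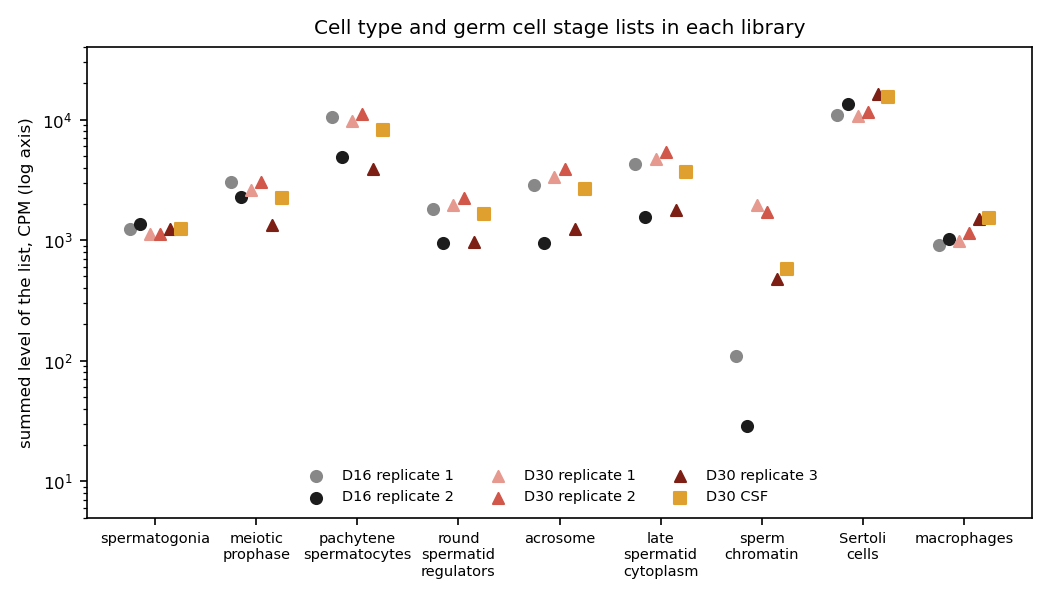
Summed CPM (log axis) of germ cell stage lists in order of development, with Sertoli cell and macrophage lists, for each D16, D30 and D30 CSF library. D16 replicate 2 and D30 replicate 3 are low from the pachytene list on, whereas for sperm chromatin genes every D30 library, from 478 to 1974 CPM, lies above both D16 libraries at 110 and 28.5 CPM.

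The genes of the nuclear proteins of spermatids were the clearest group. Of 16 genes of sperm chromatin, 5 were called higher and 0 lower, against 1.36% and 0.213% of all genes tested. All 16 had a log2 fold change above 0, against 51.8% of all genes tested. Their median was 2.87, against 0.01 over all genes tested. The list's summed level was 1.04% and 0.577% of that of the pachytene genes of the same library at D16, and 20.1%, 15.3% and 12.3% at D30. The D30 range therefore stayed above the D16 range also in the library with few germ cell transcripts. The list had 10 calls without D16 replicate 1 and 1 without D16 replicate 2.

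Prm1, Prm2 and Tnp2 lie close to each other on chromosome 16, though not every gene of that stretch is shown. The bases before their starts are given here with those of Tnp1, because all 4 were called higher. Each line gives the 150 bases that end at the annotated start (RefSeq, GRCm38.p6, minus strand), 5′ to 3′, with the letters TGANNTCA in capitals, a relaxed form of the cAMP response element TGACGTCA that was searched on both strands.
Prm1, chr16:10796824-10796973: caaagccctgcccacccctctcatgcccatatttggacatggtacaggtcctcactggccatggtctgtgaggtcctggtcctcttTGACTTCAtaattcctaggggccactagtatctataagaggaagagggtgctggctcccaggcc
Prm2, chr16:10792106-10792255: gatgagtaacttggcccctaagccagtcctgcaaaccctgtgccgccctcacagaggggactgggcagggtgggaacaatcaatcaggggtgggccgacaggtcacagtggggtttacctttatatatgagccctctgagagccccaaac
Tnp2, chr16:10788656-10788805: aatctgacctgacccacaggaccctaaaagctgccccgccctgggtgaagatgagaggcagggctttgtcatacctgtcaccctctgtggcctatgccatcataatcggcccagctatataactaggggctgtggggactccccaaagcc
Tnp1, chr1:73015900-73016049: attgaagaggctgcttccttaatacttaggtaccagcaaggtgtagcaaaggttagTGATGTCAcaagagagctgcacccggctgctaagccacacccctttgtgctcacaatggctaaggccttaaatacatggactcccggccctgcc

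The match TGACTTCA begins 64 bases before the start of Prm1 and TGATGTCA begins 94 bases before that of Tnp1, and the windows of Prm2 and Tnp2 hold no match to these letters. Of 27025 genes, 9.61% hold TGANNTCA and 1.58% hold TGACGTCA in the same 150 bases before any of their annotated starts. Only 212 of the 268 higher genes (79.1%) have a window in the table, so a share over them would be void and is not given.

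Prm1 (Entrez 19118, chromosome 16 from 10796332 to 10796823), which codes for protamine 1, had 1.26 and 1.09 CPM in the D16 libraries and 328, 318 and 67.2 CPM in the D30 libraries, a log2 fold change of 7.72 (SE 1.16, adjusted p = 0.00424). Prm2 (Entrez 19119, chromosome 16 from 10791377 to 10792105), the gene of protamine 2, had 1.56 and 1.86 CPM at D16 and 680, 432 and 129 CPM at D30, a log2 fold change of 7.98 (SE 1.31, adjusted p = 0.0053). Tnp2 (Entrez 21959, chromosome 16 from 10787935 to 10788655), a transition protein gene, had 1.58 and 1.14 CPM against 324, 314 and 78.9 CPM, a log2 fold change of 7.51 (SE 0.90, adjusted p = 0.00108). In all of them D30 replicate 3 was the lowest D30 library and still far above D16. Tnp1 (Entrez 21958, chromosome 1 from 73015074 to 73015899) was less even at D16, with 5.46 and 0.787 CPM, and had 269, 359 and 56.1 CPM at D30 (log2 fold change 6.25, SE 1.30, adjusted p = 0.0242). H2al2a, a histone variant gene of spermatids, was at the floor at D16, with at most 3 counts a library, and at 14.1, 12.1 and 3.48 CPM at D30. The calls of Prm1, Prm2 and Tnp1 were lost without D16 replicate 2, and that of Tnp1 also without D30 replicate 1 or 2. Tnp2 kept its call without each library in turn.

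Against the testis of the same age these levels were low. The D30 mean was 5.73% of the 36.5 dpp mean for Prm1, 5.57% for Prm2, 5.88% for Tnp1 and 7.35% for Tnp2. Over the 268 higher genes the median of this percentage was 9.89%.

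Genes of the late spermatid's cytoplasm and cytoskeleton followed, with 9 of 30 called higher and 0 lower (1.36% and 0.213% of all genes). Their median log2 fold change was 2.19. Spem1, which is needed for shedding the cytoplasm of the sperm head, had 0.478 and 0.175 CPM at D16 and 59.5, 46.1 and 12.4 CPM at D30 (log2 fold change 6.98, SE 1.13, adjusted p = 0.00479). Fscn3, a testis fascin that bundles actin, had 0.0503 and 0.109 CPM at D16 and 33.6, 18.7 and 6.70 CPM at D30 (log2 fold change 7.93, adjusted p = 0.00424). The others called were Cabs1, Ccin, Lelp1, Prss37, Spata3, Spata18 and Txndc2, with log2 fold changes from 3.32 (Spata18) to 7.02 (Prss37). None of these 9 calls held without D16 replicate 2, and 22 members were called without D16 replicate 1.

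Tssk6, a kinase gene of spermatids (Entrez 83984, within Ndufa13 on chromosome 8), had 0.855 and 0.918 CPM at D16 and 26.7, 19.6 and 6.35 CPM at D30, a log2 fold change of 4.36 (SE 0.52, adjusted p = 0.00108). It was the only member called of 19 regulators of round spermatids, whose median was 0.63. Oxct2b, a testis form of the enzyme that activates ketone bodies, rose from 0.201 and 0.131 CPM to 17.0, 7.73 and 3.60 CPM (log2 fold change 5.88, SE 0.69, adjusted p = 0.00108). It shares near-identical sequence with Oxct2a and lies within Bmp8b, so the split of its reads is uncertain. Calls of the uncharacterised genes Gm5893 (16.6, 10.3 and 3.10 CPM at D30) and 4931408C20Rik (4.56, 2.23 and 2.52 CPM at D30) rest on D16 libraries at the floor, and no fold is given for them.

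Genes of other sperm structures were transcribed in both D16 libraries, with summed levels of 2846 and 956 CPM for the acrosome and 4554 and 2971 CPM for the axoneme, against 3348, 3901 and 1234 CPM and 5980, 4692 and 2566 CPM at D30. Of 31 acrosome genes 30 had a log2 fold change above 0 (51.8% of all genes), with a median of 1.00. Only Sppl2c, a protease gene of spermatids, was called among them. The fibrous sheath and dense fibres of the tail had 0 of 23 genes called. The axoneme had 0 of 37 called and the CatSper calcium channel 0 of 14. Without D16 replicate 1 the acrosome list had 18 calls and a median of 3.77, and the fibrous sheath list 10 calls. Without D16 replicate 2 both had 0 calls, with an acrosome median of 0.11. Akap4, the main protein gene of the fibrous sheath, had 63.2 and 1.25 CPM at D16 and 379, 346 and 90.4 CPM at D30, a log2 fold change of 3.11 (SE 1.12, adjusted p = 0.243). Odf1, of the outer dense fibres, had 43.9 and 0.962 CPM at D16 and 148, 154 and 37.4 CPM at D30 (adjusted p = 0.422). The fold between the D16 libraries was thus larger than that between D16 replicate 1 and any D30 library, and for Odf1 the groups overlapped. Pachytene genes (median 0.16, 1 of 24 called) and genes of meiotic prophase (median -0.18, 0 of 28) gave little, and Sycp3, of the synaptonemal complex, had 259 and 106 CPM at D16 and 131, 275 and 61.4 CPM at D30.

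Spermatogonial genes had a median log2 fold change of -0.66 over 23 genes, the lowest of the 41 lists in the fit of all 5 libraries. The endothelial list was lower without D16 replicate 2 (-0.70 against -0.37), D30 replicate 1 (-0.71 against -0.60) or D30 replicate 2 (-0.53 against -0.47). In 11 of the 23 every D30 library was below both D16 libraries, against 11.3% of all genes, but only Egr4 was called. Egr4, a transcription factor gene of the germ line, had 21.4 and 24.1 CPM at D16 and 7.90, 9.93 and 9.77 CPM at D30 (log2 fold change -1.27, SE 0.26, adjusted p = 0.0211), a call lost without D16 replicate 2 or D30 replicate 1 or 2. Zbtb16, which keeps spermatogonial stem cells, had 29.8 and 51.1 CPM at D16 and 19.9, 15.1 and 36.8 CPM at D30 (adjusted p = 0.657), with overlap. Tex19.1, which restrains retrotransposons in germ cells, was outside the list and fell from 63.2 and 60.4 CPM to 34.3, 29.8 and 42.1 CPM (log2 fold change -0.78, SE 0.16, adjusted p = 0.0253), a call that among these fits held only without D30 replicate 3.

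**Figure D3:**
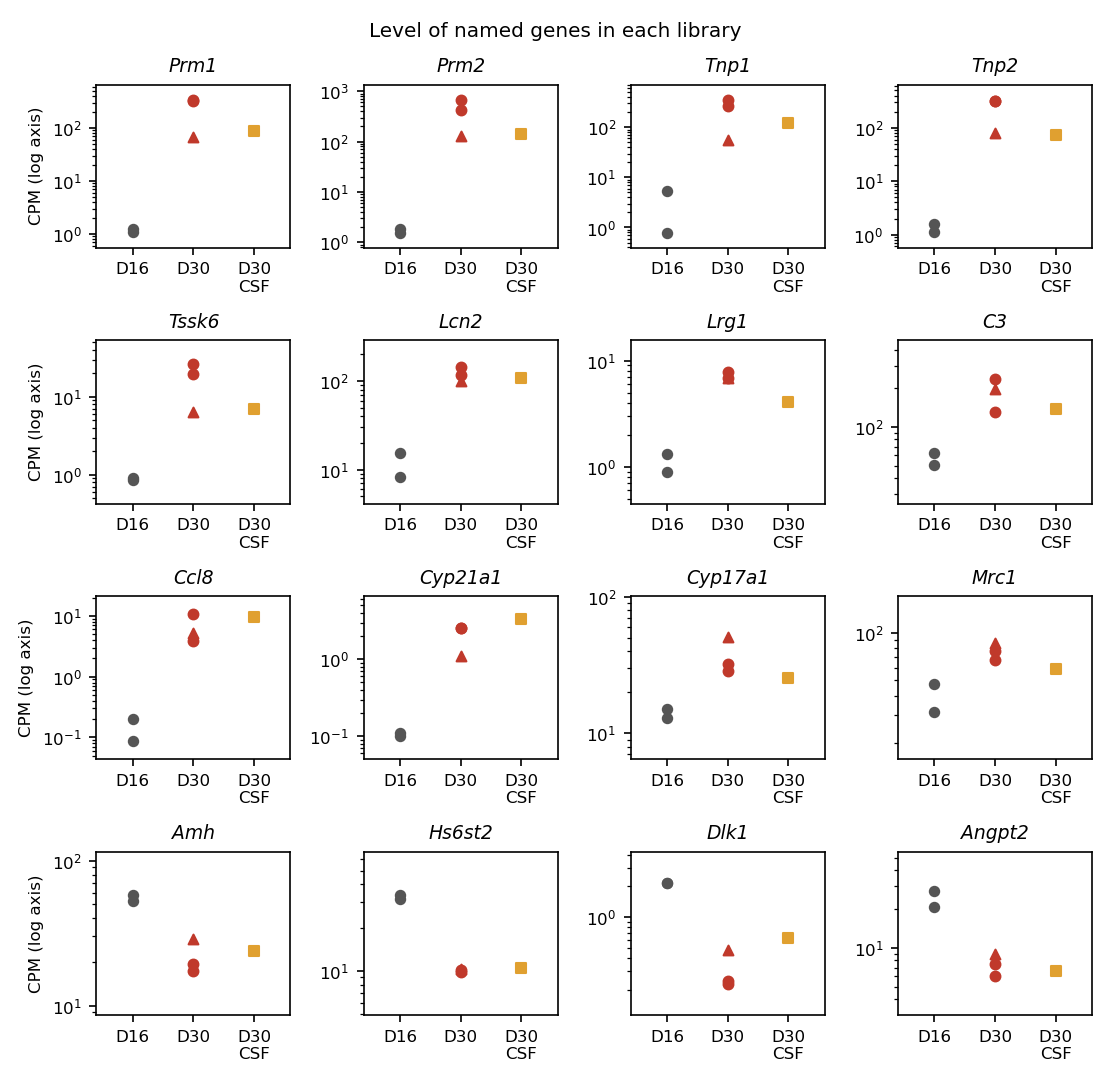
CPM (log axis, its range differing between panels) of 16 named genes in each library: D16 (grey), D30 (red, with replicate 3 as a triangle) and the single D30 CSF library of frozen tissue (yellow square). For Prm1 the D30 libraries lie at 67.2 to 328 CPM over D16 at 1.09 and 1.26, and for Hs6st2 at 9.85 to 10.3 CPM under D16 at 31.8 and 33.8.

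The acute phase genes, which liver and inflamed tissue secrete, had 2 of 21 members called higher and 0 lower (1.36% and 0.213% of all genes). Their median log2 fold change was 0.83 with genes at the floor set to their bound. In 12 of the 21 every D30 library was above both D16 libraries, against 10.2% of all genes. Lcn2 (Entrez 16819, chromosome 2 from 32384637 to 32387739) had the smallest p of all genes. It had 15.3 and 8.26 CPM at D16 and 118, 145 and 101 CPM at D30, so that D30 replicate 3 was close to the others, and its log2 fold change was 3.40 (SE 0.33, adjusted p = 0.000405). Lrg1, which codes for a secreted glycoprotein that acts on TGF-beta signalling in vessels, had 0.905 and 1.33 CPM at D16 and 7.78, 6.84 and 6.83 CPM at D30 (log2 fold change 2.71, SE 0.38, adjusted p = 0.00309). Both calls held without each library in turn.

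Complement genes had 2 of 27 called higher (1.36% of all genes) and 26 of 27 with a log2 fold change above 0 (51.8% of all genes). C3, the central component, had 50.7 and 62.6 CPM at D16 and 237, 131 and 199 CPM at D30 (log2 fold change 1.78, SE 0.30, adjusted p = 0.00572). C7, a subunit of the membrane attack complex, had 72.9 and 87.1 CPM at D16 and 198, 165 and 287 CPM at D30 (log2 fold change 1.46, SE 0.31, adjusted p = 0.0264). In both groups C7 was highest in the library with the fewest pachytene transcripts, and the part of this in its difference was not tested. Both calls were lost without D16 replicate 2, that of C7 also without D16 replicate 1 or D30 replicate 1.

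Of 35 cytokine and chemokine genes 2 were called higher and 0 lower, and in 16 every D30 library lay above both D16 libraries. Over all genes these shares were 1.36% called higher and 10.2% above both. Ccl8, a chemokine gene that attracts monocytes, had 0.201 and 0.0874 CPM at D16 and 3.81, 10.6 and 5.21 CPM at D30 (log2 fold change 5.54, SE 0.86, adjusted p = 0.00427). Il34, a ligand of the macrophage growth factor receptor CSF1R, had 2.01 and 2.43 CPM at D16 and 8.62, 7.27 and 5.06 CPM at D30 (log2 fold change 1.70, adjusted p = 0.00836). The calls of both were lost without D16 replicate 2. Traf1, an NF-kB target, was the only one called of 22 such genes, and its call held only without D30 replicate 3 among the fits that left out 1 of the 5 libraries. Interferon response genes had 0 of 34 called, a median of 0.32 and 15 members above D16 in every D30 library (10.2% of all genes), with Mx1 at 0.327 and 0.503 CPM against 1.16, 1.14 and 1.16 CPM (adjusted p = 0.0838).

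Among 30 macrophage genes Mrc1, the mannose receptor, was called, with 31.7 and 47.8 CPM at D16 and 77.0, 67.2 and 85.7 CPM at D30 (log2 fold change 0.98, adjusted p = 0.0397). This call was lost when any 1 of the 5 libraries was left out, and with library size alone. The summed level of the macrophage genes was 916 and 1030 CPM at D16 and 977, 1147 and 1506 CPM at D30, so the groups overlapped. The defining gene Adgre1 had 15.3 and 15.1 CPM against 18.1, 18.2 and 22.9 CPM (adjusted p = 0.626). Neutrophil genes, whose list includes S100a8, summed to at most 5.38 CPM and lymphocyte genes to at most 14.1 CPM in these 5 libraries.

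Of 23 steroidogenesis genes 3 were called higher and 0 lower (1.36% and 0.213% of all genes). The median was 0.12, with 13 of 23 above 0 (51.8% of all genes). Without D16 replicate 2 none was called (0 of 23), and the median was -0.15 without D16 replicate 1. Cyp17a1, the enzyme that leads to androgens, had 14.96 and 12.9 CPM at D16 and 28.4, 32.3 and 50.4 CPM at D30 (log2 fold change 1.43, SE 0.30, adjusted p = 0.0243), when the testis held 821 ± 134 CPM (SD, n = 2) at 36.5 dpp. Star, which brings cholesterol into mitochondria, had 34.9 and 52.2 CPM at D16 and 99.9, 81.1 and 123 CPM at D30 and missed the threshold (adjusted p = 0.0559). The others called were Sult1e1, the estrogen sulfotransferase (log2 fold change 3.14), and Ptgds, a prostaglandin D synthase (log2 fold change 2.01). Hsd17b3, which makes testosterone, and Akr1c14 had log2 fold changes of -1.07 and -1.14, with every D30 library below D16, and were not called. Cyp21a1, the steroid 21-hydroxylase best known from the adrenal, was not on the list and had 0.101 and 0.109 CPM at D16 and 2.58, 2.53 and 1.11 CPM at D30 (log2 fold change 4.32, SE 0.47, adjusted p = 0.000871). It has a pseudogene of near-identical sequence, so its reads may be split.

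Of 30 Sertoli cell genes only Amh (Entrez 11705, chromosome 10 from 80805240 to 80807679) was called. It had 53.1 and 57.6 CPM at D16 and 19.2, 17.3 and 28.9 CPM at D30, a log2 fold change of -1.32 (SE 0.22, adjusted p = 0.00543), after 228 CPM on average at D4. The call was lost without D16 replicate 2. Sox9, which defines the Sertoli lineage, had 108 and 169 CPM at D16 and 112, 126 and 184 CPM at D30 (adjusted p = 0.994). The list's median was 0.07. Wnt4, a secreted signal of gonadal somatic cells on the list of retinoid and niche signals, rose from 7.72 and 15.3 CPM to 34.9, 28.02 and 54.7 CPM (log2 fold change 1.80, SE 0.34, adjusted p = 0.0122), a call lost without D16 replicate 1.

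Hs6st2 (Entrez 50786, chromosome X from 51386637 to 51681705), which adds sulphate to heparan chains, led the genes that were lower. It had 31.8 and 33.8 CPM at D16 and 9.85, 10.2 and 10.3 CPM at D30 (log2 fold change -1.66, SE 0.19, adjusted p = 0.000999). Dlk1 had 2.14 and 2.12 CPM against 0.242, 0.228 and 0.479 CPM (log2 fold change -2.72, SE 0.34, adjusted p = 0.00143), and was not called in the fit with the library labelled 6.5 dpp fresh replicate 1. Pgr, the progesterone receptor gene, had 0.980 and 0.918 CPM at D16 and at most 0.176 CPM at D30, where the 3 libraries held 10 counts in all. Its call was lost in that same fit, without D16 replicate 2, and with fresh cultures only in the fit.

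Genes of vessels and stroma were among the rest. Angpt2, a vessel growth factor gene that overlaps Mcph1, had 20.9 and 27.8 CPM at D16 and 6.04, 7.53 and 8.99 CPM at D30 (log2 fold change -1.66, SE 0.27, adjusted p = 0.00546). The call of Angpt2 was lost without D16 replicate 2. Of 20 endothelial genes 0 were called, but in 11 every D30 library was below D16 (11.3% of all genes) and the median was -0.53. Pecam1, an adhesion protein gene that defines endothelium, had 83.6 and 58.2 CPM against 49.5, 43.6 and 34.4 CPM (adjusted p = 0.207). Of 25 genes of fibroblasts and matrix response 2 were called lower (0.213% of all genes), Postn (periostin, log2 fold change -1.52) and Lum (lumican, -1.19). Of 21 collagens 0 were called, with 9 below D16 in every D30 library (11.3% of all genes). The call of Lum held only without D30 replicate 3 and that of Postn only without D16 replicate 2, when 1 of the 5 libraries was left out. The log2 fold change of Postn was -0.95 without D16 replicate 1, and Lum also lost its call with RLE factors and with library size alone. Foxf1, a mesenchymal transcription factor gene, also fell, with a log2 fold change of -1.89. Its call was lost without D16 replicate 2 and without D30 replicate 1 or 2. It was also lost with fresh cultures only in the fit and with the library labelled 6.5 dpp fresh replicate 1.

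Further lists had few or no calls. Matrix proteases and inhibitors had Plat (tissue plasminogen activator, 69.3 and 64.6 CPM against 122, 124 and 143 CPM) called higher, peritubular myoid cells Actg2 and the blood testis barrier Cldn3. On the erythroid list 2 of 9 tested genes, Alas2 and Hemgn, were called higher (1.36% of all genes). At the floor in at least one group were 5 of these 9. The list's summed level did not rise, with 352 and 406 CPM at D16 and 338, 363 and 323 CPM at D30. The calls of Plat, Actg2, Cldn3, Alas2 and Hemgn were all lost without D16 replicate 2. Those of Actg2 and Alas2 were also lost without D30 replicate 1 or 2, and that of Cldn3 without D30 replicate 1. Alas2 lost its call too with the library labelled 6.5 dpp fresh replicate 1. Cytosolic ribosomal protein genes had 0 of 58 called, with 14 of 58 at a log2 fold change above 0 (51.8% of all genes) and a median of -0.29. Cell cycle genes (median -0.25), the IGF axis (-0.25), cholesterol synthesis (-0.17), hypoxia (-0.14) and NRF2 targets (-0.09) had 0 called. These medians stayed on the same side of 0 with RLE factors and with library size alone, but not all did when single libraries were left out. The NRF2 median was 0.06 without D16 replicate 1 and 0.01 without D30 replicate 1. The ribosomal median was -0.007 without D16 replicate 1, and the others stayed below 0.

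**Figure D4:**
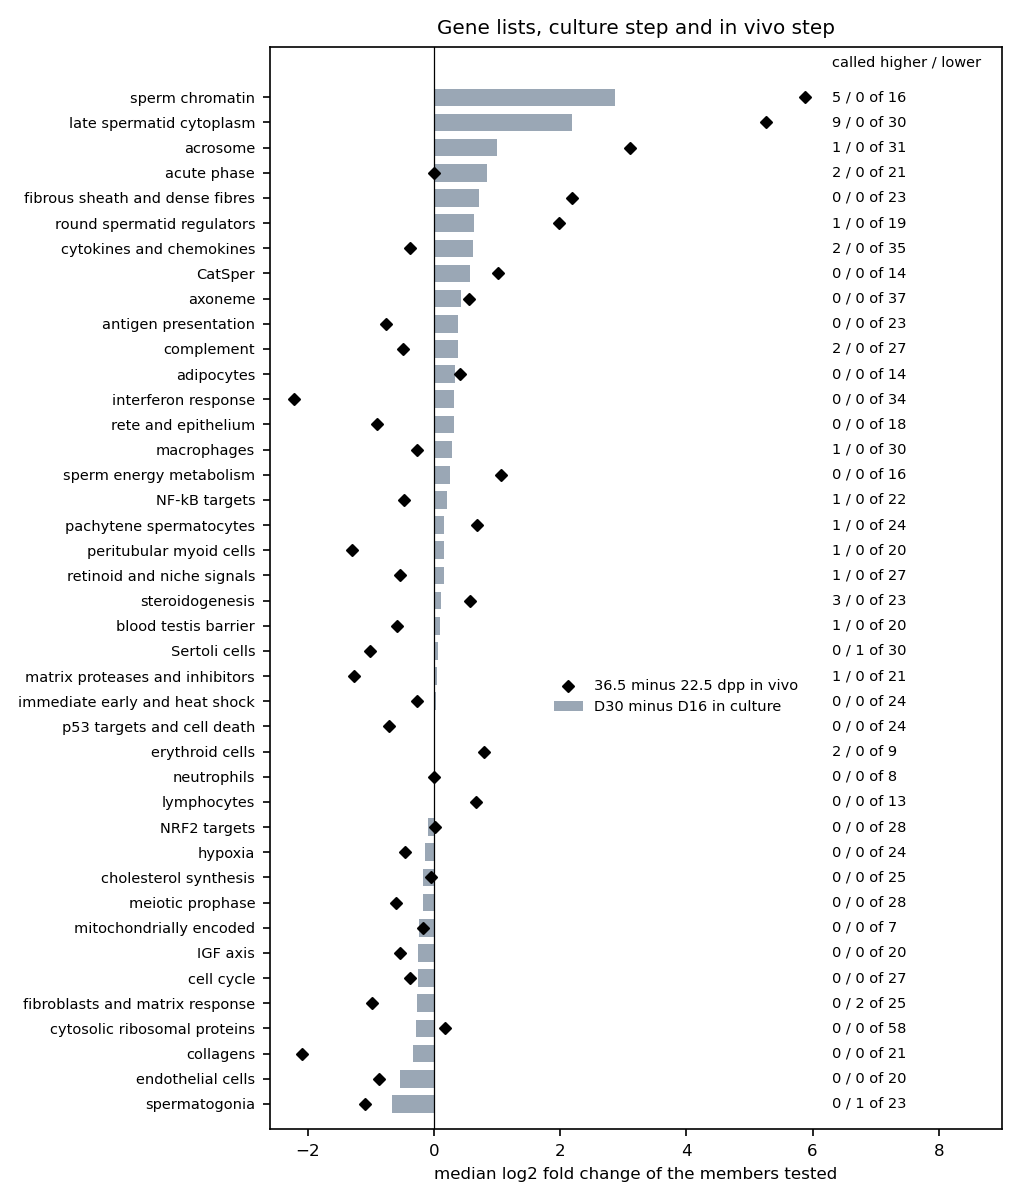
Median log2 fold change over the tested members of 41 gene lists, D30 minus D16 in culture (bars) and 36.5 minus 22.5 dpp in vivo (diamonds), with genes at the floor set to their bound, and the number of members called higher and lower in culture at the right. Sperm chromatin (5 of 16 higher) and late spermatid cytoplasm (9 of 30) lead, and spermatogonial genes (-0.66) and endothelial genes (-0.53) have the lowest medians in culture, in an order that changes when single libraries are left out.

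The same interval was then set beside the testis from 22.5 to 36.5 dpp, to ask which changes in culture also occur in vivo. These steps share no libraries. In vivo 22.7% of the genes were called higher and 26.8% lower. Of the 268 genes higher at D30, 222 (82.8%) were also higher at 36.5 dpp, 14 (5.22%) were lower and 32 were called in neither direction. Of the 42 lower genes 20 (47.6%) were also lower in vivo and 3 were higher. Among the genes higher in culture, C3, C7, Ccl8 and Il34 were called in neither direction in vivo and Mrc1, Plat and Wnt4 were lower there.

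The difference of the steps, culture minus in vivo, passed the test in 1891 genes with a higher value in culture (9.57%) and 1355 with a lower one (6.86%). The split depended on the scaling, since 58.3% of the calls were on the higher side with TMM factors, 42.8% with RLE factors and 83.3% with library size alone, where the median of all genes shifted from 0.12 to 0.58. For Plat (difference 2.30), Wnt4 (3.20), C3 (2.27), Mrc1 (1.97) and Ccl8 (5.26) the difference was positive and passed under all 3 scalings. For Tssk6 (-4.003), Oxct2b (-4.49), Calr3 (-3.80) and Lcn2 (-2.01) it was negative under all 3, with a smaller rise in culture than in vivo. For Prm1, Prm2, Tnp1 and Tnp2 the difference lay between -2.33 and -3.38 and missed the threshold (adjusted p from 0.0635 to 0.107). Hs6st2 fell less in culture (difference 1.67), whereas Angpt2 fell in culture and was not called in vivo (-2.22).

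**Figure D5:**
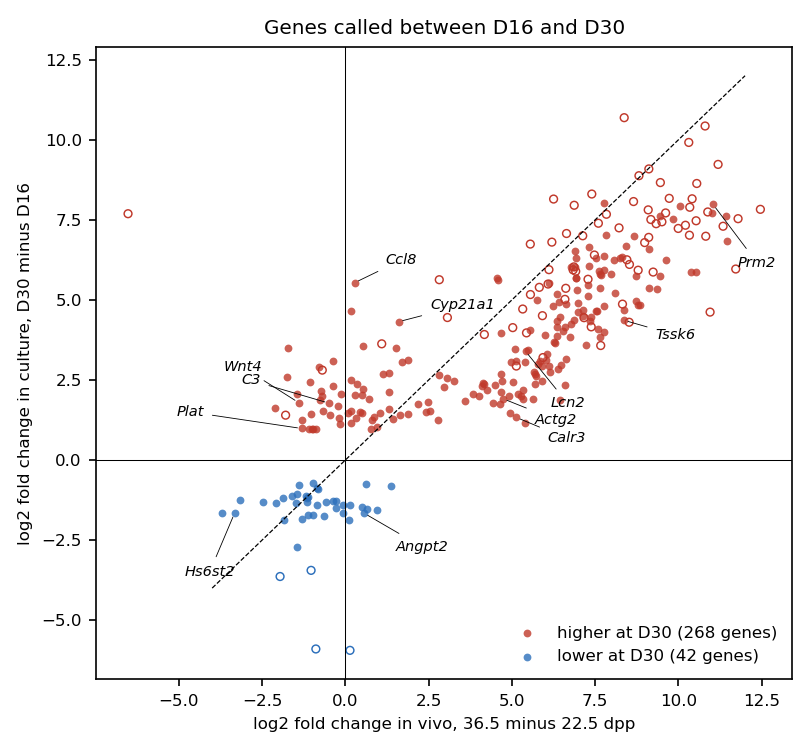
Fitted log2 fold change of the 310 called genes, in vivo from 22.5 to 36.5 dpp on the x axis and in culture from D16 to D30 on the y axis, with a dashed line of equal change and open circles for genes at the floor in a group. Most of the 268 higher genes lie right of 0 and under the line, and C3, Wnt4 and Plat lie left of 0.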

How the data were processed

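RNA was sequenced as single-end 50-base reads from a stranded kit. The authors aligned the reads to GRCm38 with STAR 2.7.3a and deposited raw read counts per gene from HTSeq 0.12.4; the strand setting is not given in the sources used here. Of 27466 gene IDs 27373 matched the GRCm38.p6 annotation. The columns of 6.5 dpp fresh replicates 2 and 3 held identical values and were counted as 1 sample, and the library labelled 6.5 dpp fresh replicate 1 was left out, which left 21 libraries in 9 groups.

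The counts were fitted with the quasi-likelihood test of edgeR 4.0.16 (R 4.3.3, TMM factors, filterByExpr, Benjamini-Hochberg adjustment, threshold 0.05). All libraries shared 1 estimate of spread, D30 was set against D16, and its step against the step from 22.5 to 36.5 dpp. DESeq2 1.42.0 and other filters, factors and sample sets were alternatives. The script was tested on simulated data. CPM was computed on the library total. The floor was 3 counts: where no library of a group exceeded it, the gene's fold was not given, and in list medians it was set to its bound.

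Genes were named as the 15 smallest p in each direction among called genes whose groups did not overlap, the 10 largest changes in each direction of at least 1 CPM in the higher group, the called members of 41 gene lists with up to 4 others per list, and genes of the table that the study names for this comparison. The 1 gene it names was not analysed here, and a few genes that the rule selects are not reported here. The comparison, the lists and the rule were chosen with earlier results of these data known. Counting error is small at these depths except for genes of few counts.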

Additional observations from a re-analysis of the deposited data

Results flagged for a closer look

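The steps in culture (D16 to D30) and in vivo (22.5 to 36.5 dpp) differed in 3246 genes by the edgeR test of the difference, at an adjusted p under 0.05. The values here are log2 differences, culture minus in vivo, for the 26 genes named here that passed. A positive difference was found for Ccl8 (5.26), Wnt4 (3.20), Cyp21a1 (2.72), Plat (2.30), C3 (2.27), Mrc1 (1.97), Il34 (1.93), Hs6st2 (1.67) and Amh (1.15). Among these, Hs6st2 and Amh fell in both settings and fell less in culture. A negative difference was found for the spermatid and germ cell genes Oxct2b (-4.49), Tssk6 (-4.003), Calr3 (-3.80) and Spata18 (-2.74), which rose in both settings and less in culture. It was also found for Ttc24 (-4.66), Paqr5 (-3.49), Sult1e1 (-3.48), Actg2 (-2.82), Olfml2a (-2.53), Angpt2 (-2.23), Postn (-2.16), Traf1 (-2.07), Lcn2 (-2.01), Ptgds (-1.999), Fbxo40 (-1.97), Pde8b (-1.96) and Cldn3 (-1.78). The difference passed under all 3 scalings for 22 of the 26 genes. With RLE factors Amh missed the threshold (adjusted p = 0.0519), and with library size alone Fbxo40, Cldn3 and Traf1 did (0.079, 0.0718 and 0.0653).

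The single D30 library of tissue frozen by controlled slow freezing (D30 CSF) was in the fit as a group of its own, outside the comparison. Only the alternative that pooled frozen with fresh tissue counted it as D30, and that alternative called 345 genes from D16 to D30. Of the 268 genes higher at D30 in fresh tissue, 266 lay above both D16 libraries in D30 CSF, against 31.1% of all genes tested. Of the 42 lower genes 42 lay below both, against 34.5% of all genes tested. These genes were chosen on the same D16 libraries, so both counts are a description and support nothing. It is 1 library, and its difference from fresh D30 tissue was not tested.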

How the results depend on the processing

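The 310 calls from D16 to D30 became 673 with DESeq2, 34 with fresh cultures only, 0 with only the groups compared (1147 at an unadjusted p under 0.05) and 134 with the library labelled 6.5 dpp fresh replicate 1. Leaving out 1 library gave 18 to 739. Stricter rules left 2 genes (adjusted p at most 0.001 and at least 4-fold) and 3 genes (under 0.001 and a log2 size of at least 1.5). Other filters and factors kept the count between 299 and 317. Deviations from the group means correlated at 0.36 for replicates 1 and -0.55 for replicates 2. With 2 libraries at D16 their deviations mirror each other, so these values cannot decide whether replicate numbers pair the libraries. The replicate block gave 259 calls. The difference of steps, 3246 genes, became 5963 with library size alone and 1097 with only the groups compared. Without 1 library it was 1009 to 4629, with 1977 without 22.5 dpp replicate 2 and 1545 without 36.5 dpp replicate 1, and 2704 with the replicate block. The 38 list members called became 6 to 97 without 1 library. Of the 75 named genes called, 22 were called with fresh cultures only, 0 with only the groups compared, 43 with the library labelled 6.5 dpp fresh replicate 1, and 15 to 70 without 1 library. Of 1124 values of named genes over 15 settings, 799 kept their call, 325 kept the direction without the call and 0 reversed. Fits without D16 replicate 1 or 2 leave 1 D16 library, which is assumed to vary like the other groups. The cause of these changes was not tested. With 2 libraries at D16, genes of few counts and genes that differ between those libraries are those least well measured.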
